A study of Mus musculus with 2 samples.

Results

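The genes described here are the Notch receptors Notch1, Notch2 and Notch3, the Notch ligands Jag1, Jag2, Dll1 and Dll4, and the Notch target genes Hes1, Hey1 and Heyl. These 10 genes, of 21887 protein-coding genes on the chromosomes analysed, were chosen by name. Their regions are the mm10 gene body with 50 kb on either side, called the window below. The windows held 8 of the 5735 W2 peaks and 30 of the 22570 M6 peaks. Both libraries are ATAC-seq libraries, in which a transposase cuts open chromatin, made from prostate tumor cells of C57BL/6 mice. The cells of W2 had 2 weeks of tamoxifen and represent the early stage of progression to neuroendocrine prostate cancer, a tumor type with features of nerve and hormone-secreting cells. The cells of M6 had 6 months and represent the late stage, so both groups carried the tamoxifen treatment and no untreated library was analysed here. Genotype, the driver of any tamoxifen-dependent allele, animal age and the number of animals behind a library are not stated in the sources used here. There was 1 library per time point, so nothing below has a replicate check or a test of the time points, and intervals cover counting error only.

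Notch signalling passes between touching cells. A ligand of the Jagged or Delta-like family on the sending cell binds a Notch receptor on the receiving cell, and cleavage by ADAM proteases and then by gamma-secretase frees the receptor's intracellular domain. In the nucleus that domain joins the DNA-binding protein RBPJ and Mastermind coactivators and turns on genes of the Hes and Hey families, which encode repressors. In the prostate the pathway is known for roles in basal and luminal epithelium, and Hes repressors are known to hold back proneural factors in neural and neuroendocrine lineages.

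A peak is an interval that the authors' caller placed above the local background of its own library. Strength is given as the caller's −log10 q, as fold over local background, and as pileup, the tags stacked at the summit, which was recovered from the fold and the p. The lowest pileup of any listed peak was 12 tags in W2 and 10 in M6, so a site without a peak is below the caller's threshold and is not shown to be closed. In these bulk libraries, fewer cells with an open site and less opening per cell cannot be told apart. The background floor, read as relative depth, was 2.96 tags in W2 and 2.65 in M6, and read totals are not given here. At the 4618 W2 peaks with an overlapping M6 peak the ratio of M6 to W2 pileup had a median of 1.46. A start peak is a peak within 1 kb of an annotated start, and the background for it was 18.8% of genes for W2 and 41.0% for M6. Luminal markers had one at 4 of 10 genes in each library, with Epcam, Cdh1 and Cldn3 marked in both. The prostate gene Hoxb13 had none in either. Neuroendocrine markers had 0 of 10 in W2 and 4 of 10 in M6, which in M6 is close to the share of all genes, as is the luminal count. Several Notch genes also work in vessels, and neither the 10 endothelial nor the 8 mural and smooth muscle markers had a start peak in either library. Their windows were not free of peaks: the endothelial ones held 5 peaks in W2 and 16 in M6, of which 2 and 8 touched gene bodies, those of Pecam1, Tek, Vwf and Erg in M6. The mural and smooth muscle windows held 10 and 21, none in a gene body. In both libraries the windows of Cdh5, Kdr and Emcn held none. Basal markers had 0 of 6 and fibroblast markers 0 of 6 in both libraries, and leukocyte markers 0 of 8 in W2 and 1 of 8 in M6.

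Across the 10 windows M6 had 30 peaks against 8 in W2. Of the 10 genes, 7 had more peaks in M6 (64.2% of all protein-coding genes did), 1 had fewer, Notch2 (2.07% of all genes), and Notch3 and Dll1 had the same number in both. At least 1 window peak was found at 6 of 10 genes in W2, against 48.3% of all genes, and at 8 of 10 in M6, against 74.4%. Peaks in M6 only were at 3 genes, Notch1, Jag2 and Hey1 (27.1% of all genes), and peaks in W2 only at Notch2 (0.996%). The shares with any peak, with more peaks in M6 and with peaks in M6 only lie near those of all genes, while the classes that hold Notch2 are rare over all genes and rest here on that 1 gene. The density, averaged over the 10 windows, was 0.615 peaks per 100 kb in W2 and 2.56 in M6, against means of 0.617 and 1.72 over all gene windows. Without Heyl, whose window is described last, the averages were 0.588 in W2 and 1.98 in M6.

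**Figure D1:**
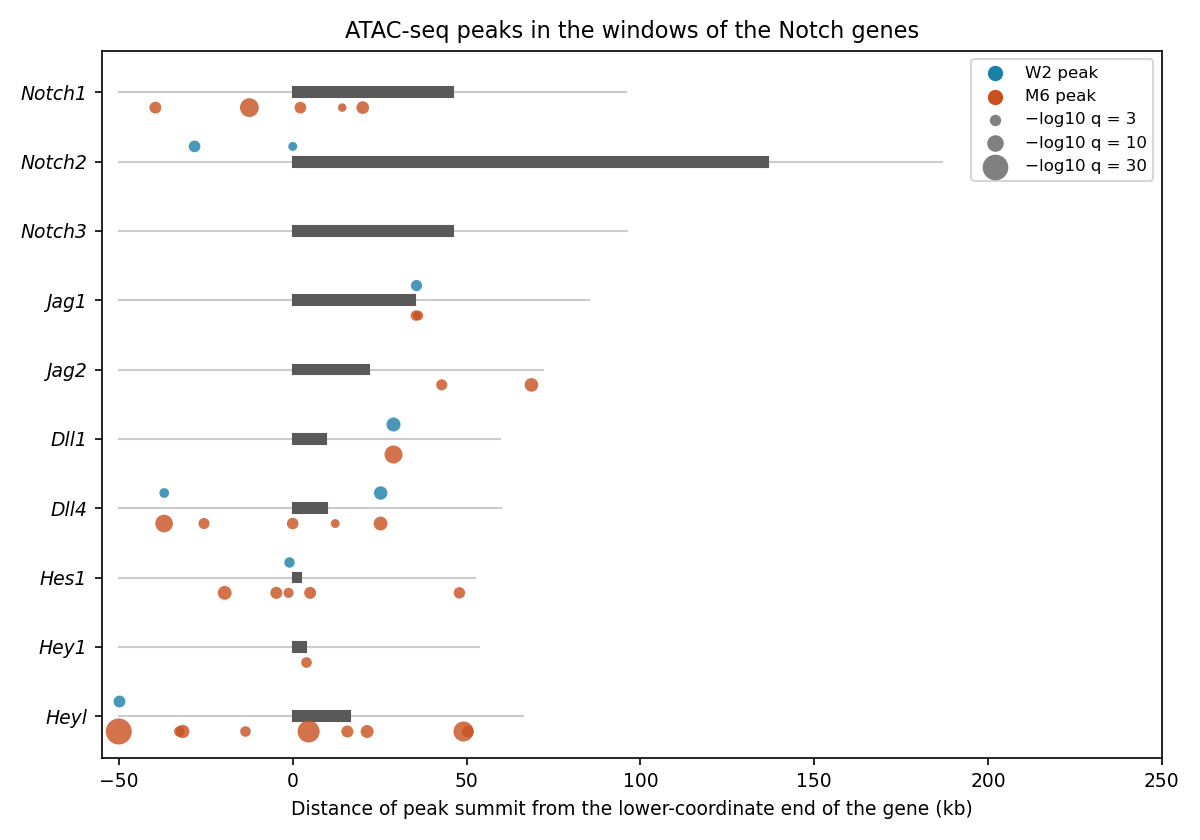
Peaks in the 10 windows. The horizontal axis is the distance of each peak summit from the lower-coordinate end of the gene in kb, dark bars are gene bodies, thin lines are windows, and point area grows with −log10 q (W2 above each line in blue, M6 below in orange). The Notch3 line carries no point, Notch2 carries W2 points only, and the Heyl line carries 9 M6 points.

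Some of these peaks sat at neighbouring genes, and the same share over all gene windows is not given here. Within 1 kb of an end of another protein-coding gene lay 4 of the 8 W2 peaks and 8 of the 30 M6 peaks. Only 1 W2 peak, at Notch2, and 7 M6 peaks touched the body of a Notch gene itself, namely 3 in Notch1, 2 in Heyl, 1 in Dll4 and 1 in Hey1. When both lists were cut to their 5735 strongest peaks, which in M6 meant a −log10 q of at least 10.8, 6 M6 peaks remained in the windows. Of these, 5 were at or near Sec16a, Fam120b, Vps18, Hpcal4 and Pabpc4, and the other 1 was inside Heyl. No Notch gene then had an M6 start peak, against 16.8% of all genes. The window edge decided 1 pair of peaks: the Hpcal4 peaks lay 49.8 kb (W2, −log10 q 6.12) and 49.6 kb (M6, 36.9) from Heyl, just inside. Just outside lay M6 peaks 56.2 kb from Heyl (2.57) and 56.2 kb from Hes1 (6.91), and a W2 peak 60.9 kb from Hey1 (3.09).

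A start peak was found at 3 of 10 genes in W2 and 4 of 10 in M6. Over all protein-coding genes these shares were 18.8% and 41.0%, so the M6 share of the Notch genes was near the background. Jag1 had a start peak in both libraries. Notch2 and Hes1 had a start peak in W2 only, a pattern seen at 0.676% of all genes, and Dll4, Hey1 and Heyl in M6 only (22.9% of all genes). At Hes1 the W2-only call rests on the 1 kb limit. Its W2 peak ended 961 bp from the gene and an overlapping M6 peak 1091 bp from it. The other 4, Notch1, Notch3, Jag2 and Dll1, had none (58.3% of all genes). The promoter table gives a start for 7 of the 10 genes. For Hes1, Hey1 and Heyl both gene ends were used, and with the 7 alone the counts were 2 in each library, against 19.9% (W2) and 42.3% (M6) of all genes with a listed start.

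The sequences before the starts of the 3 genes with a listed start and a start peak show which bases the peaks covered. Each run is the 250 bases before the RefSeq start (GRCm38.p6, the assembly of mm10), and capitals mark the bases inside the called peak. Notch2 lies at chr3:98013288-98013537 on the plus strand and is shown with its W2 peak. Jag1 lies at chr2:137116521-137116770 on the minus strand and is shown with its W2 peak. Dll4 lies at chr2:119325534-119325783 on the plus strand and is shown with its M6 peak, which covered all 250 bases.
Notch2: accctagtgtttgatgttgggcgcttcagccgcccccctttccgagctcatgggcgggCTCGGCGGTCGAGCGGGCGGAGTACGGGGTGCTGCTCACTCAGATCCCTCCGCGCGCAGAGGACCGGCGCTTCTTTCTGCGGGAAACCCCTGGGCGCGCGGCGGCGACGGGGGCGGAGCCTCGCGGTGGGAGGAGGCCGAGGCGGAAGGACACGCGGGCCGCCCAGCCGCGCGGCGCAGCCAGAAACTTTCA
Jag1: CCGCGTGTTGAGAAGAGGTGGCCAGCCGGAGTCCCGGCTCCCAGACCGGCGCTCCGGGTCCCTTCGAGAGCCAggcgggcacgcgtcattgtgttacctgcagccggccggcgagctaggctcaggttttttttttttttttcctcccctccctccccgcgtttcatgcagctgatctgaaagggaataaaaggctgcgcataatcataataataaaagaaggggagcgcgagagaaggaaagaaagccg
Dll4: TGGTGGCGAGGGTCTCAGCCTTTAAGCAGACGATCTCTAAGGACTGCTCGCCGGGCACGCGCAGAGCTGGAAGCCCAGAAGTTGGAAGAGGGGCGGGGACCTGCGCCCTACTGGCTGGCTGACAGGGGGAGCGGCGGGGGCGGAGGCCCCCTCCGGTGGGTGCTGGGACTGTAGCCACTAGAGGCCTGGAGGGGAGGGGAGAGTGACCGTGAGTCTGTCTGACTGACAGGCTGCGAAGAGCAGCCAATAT

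The W2 peak covered the last 192 bases before the Notch2 start. At Jag1 only the 73 bases farthest from the start were covered, and the rest of that peak lay farther upstream. The 7 genes had 8 promoter entries, since Dll1 has 2 listed starts. Their content of G and C ran from 56.0% (the upstream Dll1 start) to 87.2% (Jag2), against a median of 52.4% over 32851 mouse promoters. The ratio of observed to expected CpG ran from 0.557 (Dll4) to 1.14 (Jag2), against a median of 0.373. Among all genes with a listed start, promoters with a ratio of at least 0.6 had a start peak in 34.6% of cases in W2 and 70.2% in M6, against 6.41% and 16.7% for those with a lower ratio. Jag2 (1.14) and Dll1 (0.825 and 0.664) were thus CpG-rich starts with no start peak in either library.

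Motifs were counted on both strands of the 250 bases. The 8 entries belong to receptors and ligands only, so the target genes Hes1, Hey1 and Heyl were not scanned. The RBPJ core, TGGGAA, was in 0 of the 8 entries and in 21.6% of all promoters. The E-box that Hes and Hey proteins can bind, CACGTG, was also in 0 of 8, against 6.02%. The SP1 box, GGGCGG, was in 5 of 8 (the receptors, Jag2 and Dll4), against 32.7%. The AP-1 motif, TGANTCA, was in 1 of 8, at base −109 of the upstream Dll1 start, against 6.75%. No match overlapped one of another motif. These are letter matches in a short window and not sites shown to be bound.

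The 3 receptors differed in where their peaks lay. Notch1, whose loss and gain are both known in cancer, spans chromosome 2, 26457902 to 26503822, on the minus strand. Its window had 0 W2 peaks, and the nearest W2 peak was 317 kb away. M6 had 5 peaks there, none of them at the Notch1 start. Inside the gene lay 3 of them, with summits 25.8, 31.7 and 43.8 kb downstream of the start and −log10 q values of 7.28, 2.20 and 5.95. Their pileups were 23, 14 and 19 tags. They thus lay in the middle and in the far part of the gene and were of low to moderate strength for M6, at percentiles 53.8, 1.23 and 40.5 of its list. Each list was also ranked by −log10 q and split into 10 strength classes of equal size. In the M6 classes of these 3 peaks, 13.3%, 3.32% and 10.0% of peaks had a W2 counterpart, so most M6 peaks of such strength had none. The strongest peak of the window (−log10 q 18.5, 48 tags) lay 271 bp from an end of the neighbouring gene Sec16a and not in Notch1.

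Notch2, a receptor broadly used in epithelia, spans chromosome 3, 98013538 to 98150367. It was the gene with fewer peaks in M6. W2 had a narrow start peak, 98013346 to 98013545, with 14 tags (95% Poisson interval 7.65 to 23.5), a fold of 3.61 and a −log10 q of 2.62. A second W2 peak lay 28.3 kb upstream of the start, outside genes, with 19 tags (11.4 to 29.7), a fold of 4.81 and a −log10 q of 5.86. M6 had no peak in the 237 kb window, and its nearest was 86.0 kb from the gene (−log10 q 3.86). Of the W2 peaks in the strength classes of these 2, 65.0% and 80.9% had an M6 counterpart. A window with at least 2 W2 peaks and no M6 peak, a rule set after this result was seen, occurred at 13 of 21887 genes (0.0594%). The start peak was at percentile 2.34 of the W2 list, close to the caller's limit.

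Notch3, the receptor known best from vascular smooth muscle, spans chromosome 17, 32120820 to 32166896. It had no window peak in either library, as did 24.6% of all genes. The nearest peaks were 154 kb away in W2 (−log10 q 7.48) and 68.9 kb away in M6 (3.30).

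Among the ligands, the Jagged and Delta-like genes split between own-start peaks and neighbour peaks. Jag1, the main Jagged ligand of many epithelia, spans chromosome 2, 137081451 to 137116520, on the minus strand. Its start region had a peak in both libraries, with summits 241 bp upstream of the start in W2 and 325 bp in M6. The pileup was 21 tags in W2 and 23 in M6, a ratio of 1.10 (exact 95% interval 0.580 to 2.08). The fold was 4.17 in W2 and 3.31 in M6, since the local background was 4.28 tags in W2 and 6.24 in M6. M6 had another peak about 1 kb upstream of the start, at 137117482 to 137117688, with 21 tags and a −log10 q of 3.51. Pileup at the shared Jag1 site therefore differed by less than its counting error.

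Jag2, the other Jagged ligand, spans chromosome 12, 112907803 to 112929812. It had 0 W2 peaks and 2 M6 peaks in its window, and both were away from it. The closer one, 21.1 kb upstream of the start (22 tags, −log10 q 5.16), lay outside protein-coding genes and inside the noncoding gene Gm26583. The farther one, 46.9 kb upstream (25 tags, 8.79), lay where Brf1 and Btbd6 overlap. Thus no listed peak touched Jag2 itself, in spite of the most CpG-rich start of the 7.

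Dll1, the Delta-like ligand of neurogenesis and segmentation, spans chromosome 17, 15367354 to 15376932. Its window had 1 peak in each library at the same place, the start of Fam120b, 19.2 kb upstream of Dll1. That site had 23 tags in W2 and 33 in M6 (ratio 1.43, 0.817 to 2.56). Neither Dll1 start had a peak within 1 kb.

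Dll4, the Delta-like ligand of sprouting vessels, spans chromosome 2, 119325784 to 119335666. Its window had 2 W2 and 5 M6 peaks. The W2 peaks were at the neighbours Vps18 and Chac1, and M6 had peaks at both of those as well. Pileup at Vps18 was 16 tags in W2 and 34 in M6, a ratio of 2.13 (1.14 to 4.12), and at Chac1 24 and 27 (1.13, 0.625 to 2.04). A peak at the Dll4 start was listed in M6 only, at 119325380 to 119325890. It had 28 tags (18.6 to 40.5), a local background of 7.46, a fold of 3.43 and a −log10 q of 5.69, and 7.67% of M6 peaks of such strength had a W2 counterpart. The same interval touches the noncoding gene Gm14207, and the peaks do not tell Gm14207 and Dll4 apart. The remaining M6 peaks lay 25.6 kb upstream (21 tags, −log10 q 5.03) and 12.2 kb downstream of the start, past the end of the gene (13 tags, 2.57). The endothelial markers had no start peak in M6 but 16 window peaks, and the part of vessel cells in the Dll4 peak was not tested.

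Of the 3 target genes, Hes1 had more M6 peaks around it than Hey1 and fewer than Heyl. Hes1, the main Hes repressor downstream of Notch, spans chromosome 16, 30065357 to 30067796, with no other protein-coding gene in its window. W2 had 1 peak, 30064190 to 30064396, which ended 961 bp below the lower-coordinate end of the gene. M6 had an overlapping peak, 30064053 to 30064266, which ended 1091 bp below it. The 1 kb limit thus made this a start peak in W2 and not in M6, although the 2 intervals overlap. Pileup there was 20 tags in W2 and 21 in M6 (ratio 1.05, 0.542 to 2.04), so the site differed by less than its counting error.

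M6 had 4 further Hes1 peaks with no W2 counterpart. Their summits lay 19.6 and 4.77 kb below the lower end of the gene, and 2.52 and 45.5 kb above its upper end. Pileups were 22, 24, 22 and 19 tags, and −log10 q values were 9.01, 6.42, 6.28 and 5.58. The peak just above the gene lay inside the noncoding gene Gm32998. W2 had no listed peak at any of these sites, and none of the 5 Hes1 peaks of M6 reached the −log10 q of 10.8 needed for equal numbers of peaks. In the M6 strength classes of the 4 further peaks, 7.67 to 17.4% of peaks had a W2 counterpart.

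Hey1, a Hey repressor of the same kind, spans chromosome 3, 8663359 to 8667038. It had 0 W2 peaks and 1 M6 peak in its window, at 8666992 to 8667208 across the upper end of the gene. That peak had 19 tags (11.4 to 29.7), a fold of 3.79 and a −log10 q of 4.59. It also lies inside the predicted gene LOC115489673, which overlaps Hey1 there. In its strength class 5.76% of peaks had a W2 counterpart.

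Heyl, the remaining Hey family gene, spans chromosome 4, 123233556 to 123249870. It had 1 W2 and 9 M6 peaks, the most of the 10 genes. All 9 M6 peaks had a local background of 46.2 to 65.3 tags, 13.1 to 18.6 times the M6 median of 3.52, whereas the other 21 M6 peaks had 2.65 to 7.70. The W2 peak, at Hpcal4, had an ordinary background of 4.50 tags, 1.31 times the W2 median. A window with an M6 peak of at least 3 times the median background occurred at 0.411% of all genes.

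**Figure D2:**
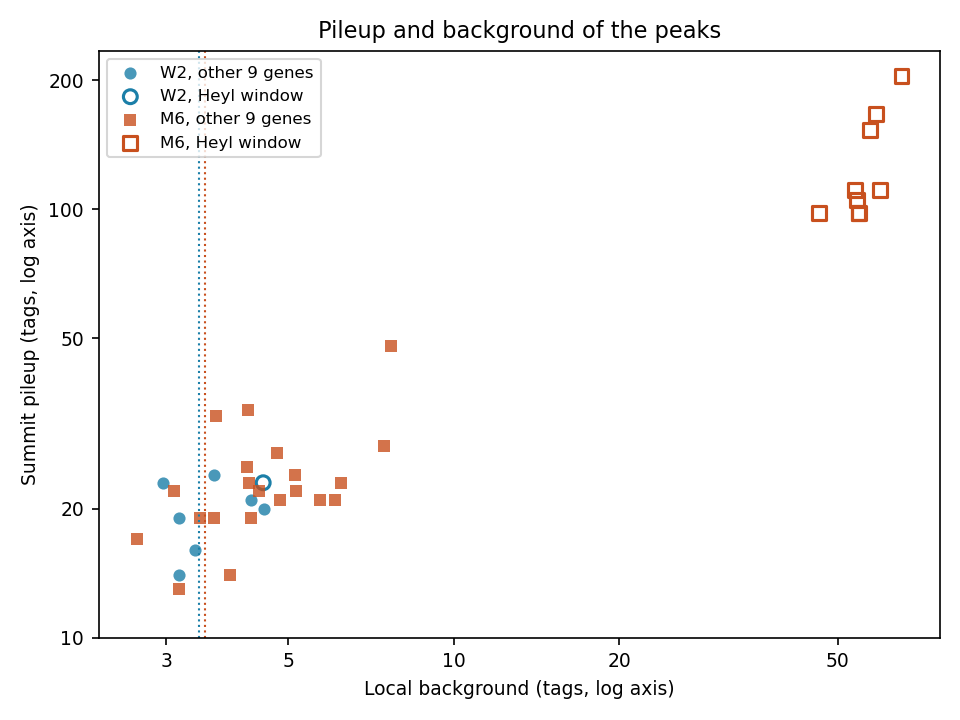
Summit pileup against local background for the 38 window peaks, both in tags on log axes, with dotted lines at each library's median background. The M6 peaks of the Heyl window (open squares) sit at 46.2 to 65.3 tags of background and 98 to 204 tags of pileup, while all others lie below 8 tags of background and below 50 tags of pileup.

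Inside Heyl, M6 had a peak 4.51 kb above the lower end of the gene, 123237808 to 123238262, with 167 tags, a fold of 2.82 and a −log10 q of 25.9. A second M6 peak ended 351 bp below the upper end, 123248930 to 123249519, with 105 tags, a fold of 1.92 and a −log10 q of 6.39. This second peak is the one counted as a start peak above, and since the tables used here do not give the strand of Heyl, which end is the start was not settled. Between the window's M6 peaks, folds ran from 1.78 to 3.09, against 3.05 to 7.23 at the other Notch genes, and 2.16% of all M6 peaks had a fold of 3.09 or less. Divided by the excess of background over the median, their pileups came to 6.31 to 11.0 tags, and 7 of the 9 fell below the lowest M6 pileup of 10. At Hpcal4, the window's shared site, pileup was 23 tags in W2 and 204 in M6 (ratio 8.87, 5.75 to 14.3), while the fold was 4.36 in W2 and 3.09 in M6. Without peaks of raised background the Heyl window held 1 W2 peak and no M6 peak, and the part of the background in the Heyl counts was not tested.

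The 6 sites with a peak in both libraries can be compared directly. An M6 peak overlapped 6 of the 8 W2 peaks (75%, Clopper-Pearson 95% interval 34.9 to 96.8%), against 80.5% of the whole W2 list. In M6, 6 of 30 (20.0%, 7.71 to 38.6%) overlapped a W2 peak, against 20.2%. Only the Jag1 and Hes1 sites were not at a neighbouring gene. Pileup, which is not adjusted for depth, was higher in M6 at all 6, by ratios of 1.05 to 2.13 at the 5 outside the Heyl window, and only the Vps18 interval among these 5 lay above 1. Over all shared sites M6 was higher at 85.8%, with a median ratio of 1.46, so M6 pileups were also higher at most sites elsewhere. The fold was higher in M6 at 2 of the 6 sites, those of Fam120b and Vps18, and lower at the other 4.

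**Figure D3:**
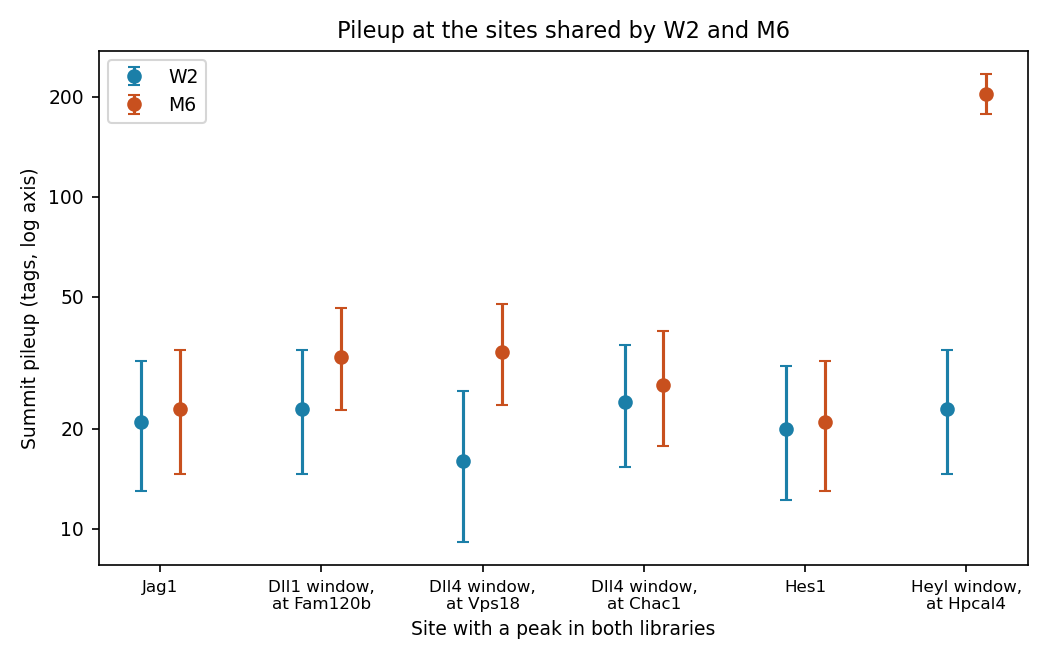
Summit pileup in tags (log axis) at the 6 sites with a peak in both libraries, with exact 95% Poisson intervals. W2 (blue) and M6 (orange) differ by at most 2 tags at Jag1 and Hes1, and the Hpcal4 site of the Heyl window stands apart at 204 tags in M6.

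The machinery around the receptors, was followed through a list of 64 further pathway genes. Start peaks were found at 22 of 64 genes in W2 (34.4%, 22.9 to 47.3%) and 41 in M6 (64.1%, 51.1 to 75.7%), against 18.8% and 41.0% of all protein-coding genes. Among all listed starts with a CpG ratio of at least 0.6 the shares were 34.6% and 70.2%. The CpG content of the 64 starts is not given here, and its part in these shares was not tested. Of the 64, 21 had one in both libraries (18.2% of all genes), 20 in M6 only (22.9%) and 1 in W2 only (0.676%).

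The proteases that cleave the receptor and their partners had the highest share of the 8 groups in both libraries, with 8 of 10 in W2 and 9 of 10 in M6. Adam10, the main sheddase of Notch, had 18 tags in W2 and 39 in M6, and the gamma-secretase gene Aph1c had 23 and 45. Ncstn, the gamma-secretase subunit nicastrin, had 24 and 22, and its peak is shared with Copa. Furin, which cuts the receptor during maturation, had no start peak. Among inhibitors of Notch, Numb, an endocytic adaptor, had the strongest start peaks of the list in both libraries (−log10 q 20.0 in W2 and 38.2 in M6). Fbxw7, a ubiquitin ligase subunit that removes the intracellular domain, had 21 tags in W2 and 30 in M6.

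The 4 strongest start peaks in M6 without one in W2 were those of Snw1, a transcriptional cofactor (−log10 q 11.1), Nrarp, a feedback inhibitor of Notch (9.11), Ep300, a histone acetyltransferase (8.01), and Itch, a ubiquitin ligase (7.74). Such M6-only start peaks were found at 6 of the 11 inhibitor and turnover genes and 5 of the 12 corepressor genes, against 22.9% of all genes, and at 9 of the 41 genes in the other 6 groups. These 2 groups were singled out after their counts were seen. Within them, the M6 peaks of Numbl, Dtx3l and Cir1 are shared with Coq8b, Parp9 and Scrn3. In the other groups, those of Psenen and Pofut1 are shared with U2af1l4 and Plagl2. The gene with a W2 start peak alone was Lfng, a glycosyltransferase that modifies Notch receptors (20 tags, −log10 q 3.51). Rbpj had a start peak in both libraries, with 21 tags in W2 and 33 in M6. Neither Notch4 nor Dll3, an inhibitory ligand known as a surface marker of neuroendocrine tumors, had a start peak in either library. Their windows held 1 W2 and 2 M6 peaks at Notch4 and 1 and 4 at Dll3.

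Other Hes and Hey genes were mixed. Hey2, the third Hey gene, had 37 tags at its start in both libraries, at 7.28-fold (W2) and 5.74-fold (M6) over background. Hes6, which opposes Hes1, had 26 tags in W2 and 45 in M6. Hes5, a neural Notch target, had no start peak in either library and 1 window peak, in M6. The Hey family thus had an equal pileup at Hey2, an M6-only peak at Hey1 and peaks on a raised background at Heyl.

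**Figure D4:**
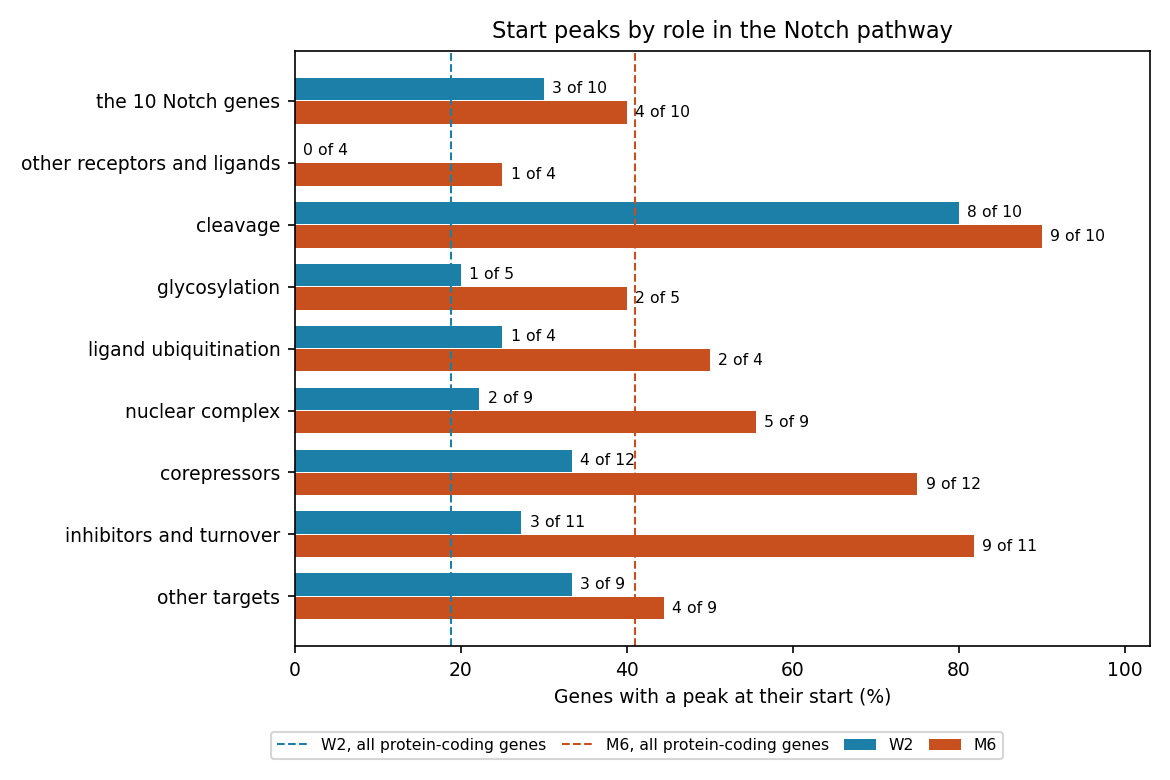
Share of genes with a start peak, in percent, for the 10 Notch genes and 8 groups of further pathway genes, with W2 in blue, M6 in orange and counts beside the bars. Dashed lines mark all protein-coding genes (18.8% for W2, 41.0% for M6), and the cleavage group reaches 8 of 10 and 9 of 10.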

How the data were processed

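Each library, W2 and M6, came as its own peak list in mm10. Per the submitters' processing notes the tools were deepTools, SAMtools 1.4, Bowtie2 and Trim Galore 0.5.0, with no role given. For the peak caller, its threshold and any shift of read ends, the sources used here give nothing. The authors deposited for each peak a fold (a linear ratio over the local background), a −log10 p, a −log10 q, a score near 10 times the −log10 q, and the summit. The deposited score was not used.

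Only the autosomes and sex chromosomes were kept (30 W2 and 24 M6 peaks left out). The pileup was the whole number k for which a background of (k + 1)/fold − 1 gives the deposited −log10 p as a Poisson upper tail within 0.001, found for 100% of peaks and tested on simulated data. Starts came from a RefSeq promoter table (17492 genes), and both gene ends were used for the other 4395. Overlap meant at least 1 bp. All 10 members were described, with start peaks and the strongest peaks. Of the pathway list, the 4 strongest M6-only start peaks, W2-only ones and Notch4, Dll3, Rbpj, Hes5 and Hes6 were named by rule. Adam10, Aph1c, Ncstn, Furin, Numb, Fbxw7 and Hey2 were chosen after their values were seen. Members and lists were chosen with earlier results of these data known. Shares carry exact (Clopper-Pearson) 95% intervals, and pileups exact Poisson ones. Python 3.11.15 with SciPy 1.17.1 was used. Alternatives are given in the closing section.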

Additional observations from a re-analysis of the deposited data

How the results depend on the processing

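With equal numbers of peaks by −log10 q, the windows held 6 M6 peaks in place of 30, of which 50% were shared with W2, while the shared share of the 8 W2 peaks went from 75% to 37.5%. No member and 18 pathway genes then had an M6 start peak (0 and 18, in place of 4 and 41). In W2, whose list already had that length, 3 members and 22 pathway genes kept theirs, so W2 then had more than M6. The difference of M6 minus W2 window peaks turned to −1 at Jag1, at Dll4 and at Hes1. A −log10 q of at least 5 left 5 W2 and 22 M6 peaks, start peaks at 1 member in W2 and 2 in M6, and a difference of −1 at Jag1. Windows of 10 kb held 3 W2 and 14 M6 peaks, gene bodies 1 and 7, and peaks for which the member had the nearest gene end numbered 3 and 16. These are smaller regions by construction. Without raised background the Heyl difference was −1. In that setting 3 members had an M6 start peak, a count added after the data were seen. With only genes of listed start, a setting added after the data were seen, 2 members had an M6 start peak. Pathway genes with a start peak then numbered 19 in W2 and 31 in M6. Over the 6 shared sites the summed pileup was 2.69 times higher in M6 than in W2, 0.989 times after division by local background, and 1.33 times without the Heyl window. The Notch2 difference kept its sign under the 6 alternatives tried for it. This is no check of it, because M6 had no peak there and each alternative only removes peaks. No paired analysis was possible because each time point had 1 library.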

Other observations

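Peaks inside 2 long pathway genes, named after their values were seen, were counted per length. Maml3, a Mastermind coactivator of 418.0 kb, had 1 peak in its body in W2 and 10 in M6, or 0.239 and 2.39 per 100 kb. Over all protein-coding gene bodies the density was 0.468 per 100 kb in W2 and 1.59 in M6. Maml2, of 413 kb, had 0 and 2, a density of 0.484 in M6 and below that of all genes.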
